A study of Mus musculus with 6 samples.

Results

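Antisense circular RNAs were the 372 of 18136 circRNAs that the deposited table classes as antisense, meaning that they lie on the strand opposite to the gene they overlap. The study made circRNA-enriched libraries from mouse brain, 3 from wild-type (WT) mice and 3 from A53T mice, which carry a mutant alpha-synuclein transgene and model Parkinson disease. The sample labels give brain as the tissue and the series text the midbrain substantia nigra, and no source used here gives sex, age, strain or the promoter of the transgene. Whether each library came from an animal of its own is not stated either, so the p-values reflect the spread among libraries, part or all of which may be technical. The libraries held 25217 to 36390 junction reads in all and 124 to 269 antisense ones, so that 1 read was worth 27.5 to 39.7 CPM, a read count scaled to a common library total.

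A circRNA forms when the end of a downstream exon is spliced back to the start of an upstream exon, which closes the RNA into a ring that lacks free ends and is long-lived. Reads across this back-splice junction identify the circle and, in a library that keeps strand, the strand it came from. Antisense transcripts are common in mammalian genomes, and one of the best known brain circRNAs arises from the strand opposite to an annotated gene. Splice signals differ in sequence from their reverse complement, so an RNA of the opposite strand does not normally carry splice sites at the exon ends of the gene it faces. The library kit marks strand, per the labels' protocols. No source used here says whether counting used the strand, so reads of a sense and an antisense circle over the same junction could not be told apart with certainty, which holds for every antisense count below.

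As a description of the tissue, 8 of 8 pan-neuronal genes had a circRNA, against 2 of 6 astrocyte, 3 of 7 oligodendrocyte, 1 of 4 endothelial and 0 of 6 microglial genes. Of 12 genes that mark dopaminergic neurons 2 had a circRNA. The lists were chosen with earlier results of these data known and were not matched for gene length. They therefore do not check the tissue or its region. Linear RNA was not measured here, so these counts do not give the share of a cell type, and in bulk tissue fewer cells of a type and less RNA per cell cannot be told apart.

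A large part of the antisense circRNAs were mirror images of circles listed on the other strand. Both ends of 194 of the 372 (52.2%) equalled, to the base, those of a circRNA on the opposite strand. Of these mirrored circles, 182 faced an exonic circRNA, 9 a sense overlapping one and 3 an intronic one, and in 193 the partner had the same host gene. In each library 57.5 to 68.6% of the antisense circRNAs with a read were mirrored, a mean of 62.2 ± 4.16% (SD, n = 6 libraries), against 2.92 ± 0.16% of exonic, 1.82 ± 0.40% of sense overlapping, 0.82 ± 0.37% of intronic and 1.79 ± 0.93% of intergenic ones. These shares are given as a description, with no test: a pair counts once in each of its classes, so the same pairs make a small share of the far larger exonic class, and an intergenic circle lies over no gene.

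The junctions of 6 of the most read mirrored circles are shown because each can be read on both strands. The sequence runs 5′ to 3′ along the antisense strand, 20 nt on each side, and the capitals mark the 3 bases on each side of the join. It was taken as the reverse complement of the back-splice of the host's exons in the GENCODE M21 transcript, since introns were not at hand; positions are those of the table in mm39.
Rims2, chr15:39430339-39479906, minus strand, opposite exons 20 to 22 of 27: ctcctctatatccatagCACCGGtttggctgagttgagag
Rims2, the sense partner, plus strand: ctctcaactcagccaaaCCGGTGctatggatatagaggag
Dtnb, chr12:3667606-3698389, minus strand, opposite exons 5 to 8 of 19: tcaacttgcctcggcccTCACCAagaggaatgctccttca
Med13l, chr5:118731398-118731635, minus strand, opposite exon 2 of 31: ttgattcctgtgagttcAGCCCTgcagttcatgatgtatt
Erc1, chr6:119671532-119671692, plus strand, opposite exon 15 of 19: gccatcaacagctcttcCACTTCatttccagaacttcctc
Fbxw4, chr19:45619304-45628960, plus strand, opposite exons 2 to 5 of 9: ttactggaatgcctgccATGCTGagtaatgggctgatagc
Gigyf2, chr1:87291826-87307730, minus strand, opposite exons 4 to 8 of 29: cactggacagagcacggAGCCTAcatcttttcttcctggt
A junction read locates the ends of a circle and not its interior, so the exons named are those the span would hold if the antisense circle had the same ones as its partner.

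Host exon ends, on the opposite strand, also occurred beyond the exact mirrors. The genomic span of 212 of the 372 antisense circRNAs (57.0%) equalled that of a run of annotated exons of the host transcript, against 31 of 1562 intronic (1.98%), 19 of 2685 sense overlapping (0.708%) and 12807 of 12861 exonic ones (99.6%) with a transcript in the annotation. Of the 212, 161 were mirrored and 51 were not. With those that shared an end with an exonic circRNA of the other strand, 61 circRNAs (16.4%) lay at host exon ends without being mirrored. The other 117 (31.5%) shared no end. Counting the partner's transcript too, an exon run could be placed for 234 antisense circRNAs. Leaving out 3 whose strand in GENCODE M21 equals that of the circle (those of Cadps and Ube2e2), 0 of 231 had an end that was also an exon end of an annotated transcript on the circle's own strand. These 231 were picked by their match to host exons, and no like count was made for the ends of other circles. The 0 is thus a description with no share to be set against. The mirrored circles lay opposite a median of 3 exons, with exon 2 the first in 70 of 183 (38.3%) and exon 1 in 0. Among 12807 exonic circRNAs, placed by their own transcript alone, exon 2 was first in 27.7% and exon 1 in 56 circles. Their median was 4 exons, and the sets were not matched for read depth.

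The mirrored circles and those at other host exon ends were long, and the rest were mostly short. Mirrored circles had a median genomic span of 10814.5 nt (interquartile range 3603 to 23480 nt) and those at other host exon ends 11093 nt, close to the 11680 nt of exonic circRNAs. Circles with no shared end had a median of 267 nt, near the 243 nt of intronic and the 311 nt of intergenic circRNAs, and 71 of the 117 (60.7%) spanned fewer than 500 nt, against 10 of the 194 mirrored ones (5.15%). These groups were formed after the data had been seen, and no test was made between them. The table's predicted sequence length equalled the genomic span for 372 of the 372 antisense circRNAs, so it holds no splicing. The same held for every intronic, intergenic and sense overlapping circRNA, but for only 868 of 13133 exonic ones. The antisense Rims2 circle is thus listed at 49568 nt and its exonic sense partner at 516 nt.

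**Figure D1:**
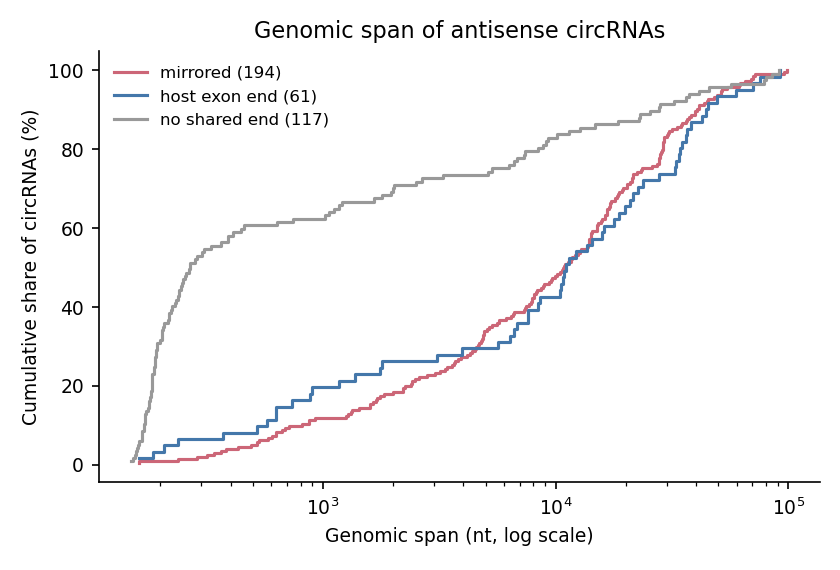
Cumulative share of antisense circRNAs (vertical axis, %) by genomic span (horizontal axis, nt, log scale) for the 194 mirrored circles, the 61 at other host exon ends and the 117 with no shared end. The last curve rises early, with a median of 267 nt, while the other curves run together with medians of 10814.5 and 11093 nt.

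Per library the class was sparse and shallow. Antisense circRNAs with a read had 2.44 ± 0.10 reads each (mean ± SD over 6 libraries), against 4.89 ± 0.28 for exonic ones, lower in 6 of 6 libraries. Their median span per library was 6662.5 ± 1156 nt against 11509 ± 250 nt, also lower in 6 of 6 (both differences, two-sided exact paired permutation, p = 0.031; adjusted over 6 comparisons, 0.0469). Against intergenic circRNAs the antisense ones were longer (776.3 ± 473.1 nt in the intergenic class, 6 of 6 libraries, adjusted exact p = 0.0469). Their reads per circle did not differ from the intergenic 2.87 ± 0.28 beyond the test (lower in 5 of 6 libraries, adjusted exact permutation p = 0.075). The circles read in all 6 libraries were the same ones in each library, 6 antisense, 1444 exonic and 6 intergenic, so their shares of 7.16 ± 2.14%, 25.9 ± 1.94% and 7.31 ± 1.36% of circles with a read are given with no test. With 5 libraries this test cannot reach 0.05, and among circRNAs with at least 5 reads the adjusted p of the 3 differences named as passing was 0.0625 or more.

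Most antisense circRNAs were read in 1 library only. Of the 372, 290 (78.0%) were read in 1 library, 43 in 2, 17 in 3, 11 in 4, 5 in 5 and 6 in all 6, and 193 had 2 reads in all. Circles read in 1 library were also common in other classes: 90.3% of intronic, 75.2% of intergenic and 69.6% of sense overlapping circRNAs. Among exonic ones the share was 40.7%. The table lists no circRNA whose highest library count is below 2, and antisense circles under that limit are not counted here. They came from 324 host genes, 6.0% of the 5414 in the table, of which 288 had a single antisense circle, 32 had 2 and 4 had 3 or more. For 60 of these hosts no other circRNA was listed.

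At mirrored junctions the sense circle usually had far more reads. The 194 pairs held 829 antisense and 17879 sense reads, 4.43% antisense. Over single pairs the antisense share ranged from 0.305% to 72.7%, with a median of 12.5%. Pairs with few reads raise that median, since listing needs 2 reads in a library: it was 33.3% in the 50 pairs with under 10 sense reads and 2.33% (range 0.305 to 15.8%) in the 36 with at least 100. In 8 pairs the antisense circle had more reads than its sense partner. Of 334 detections of a mirrored circle in a library, 278 (83.2%) fell in a library that also read the partner. The partners had a median of 21 reads over the 6 libraries. No share expected without a link was computed, so the 83.2% does not show that the 2 go together.

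**Figure D2:**
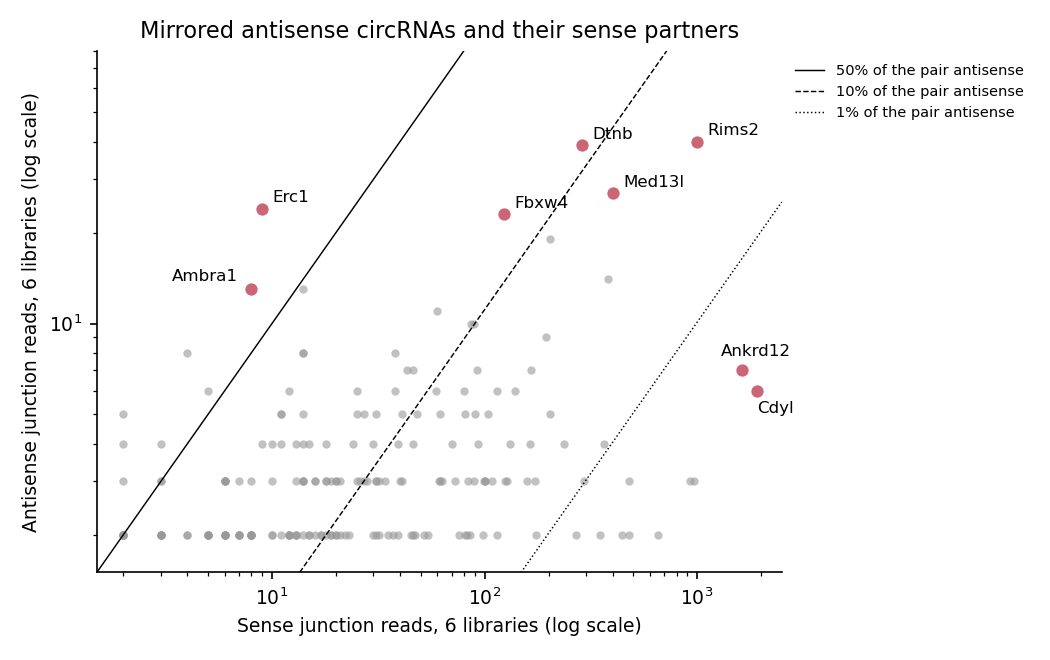
Antisense (vertical axis) against sense junction reads (horizontal axis), both summed over 6 libraries on log scales, for the 194 mirrored pairs; lines mark pairs that are 50, 10 and 1% antisense, and 8 circles are named. Rims2 and Dtnb have the most antisense reads, Erc1 and Ambra1 lie above the 50% line, and Ankrd12 and Cdyl below the 1% line.

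Abundant sense circles had a listed antisense mirror more often. Of exonic circRNAs with 2 to 3 reads over the 6 libraries, 0.266% had one (95% Wilson interval 0.161 to 0.439%), of those with 11 to 30 reads 2.90% (2.22 to 3.79%), of those with 101 to 300 reads 12.1% (8.08 to 17.8%) and of the 44 above 300 reads 27.3% (16.3 to 41.8%). The antisense share within these pairs went the other way, from 50% in the lowest range to 1.16% in the highest. Listing needs 2 reads in a library, so a mirror of a circle with 2 to 3 reads must make up much of its pair. A fall of the share was thus bound to appear. Circles of like abundance differed in whether a mirror was listed. Among the 20 most read exonic circRNAs 9 had an antisense mirror, with 0.305 to 3.84% of the pair, while those of Rnf169, Ankib1 and Ssbp2, with 807 to 878 reads, had none listed. The mirrors of Zfp148, Zfp609 and Sergef, with 964, 925 and 653 sense reads, had only 3, 3 and 2 reads. Mirrors as sparse as these can fall under the listing limit, so none listed does not mean none present.

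**Figure D3:**
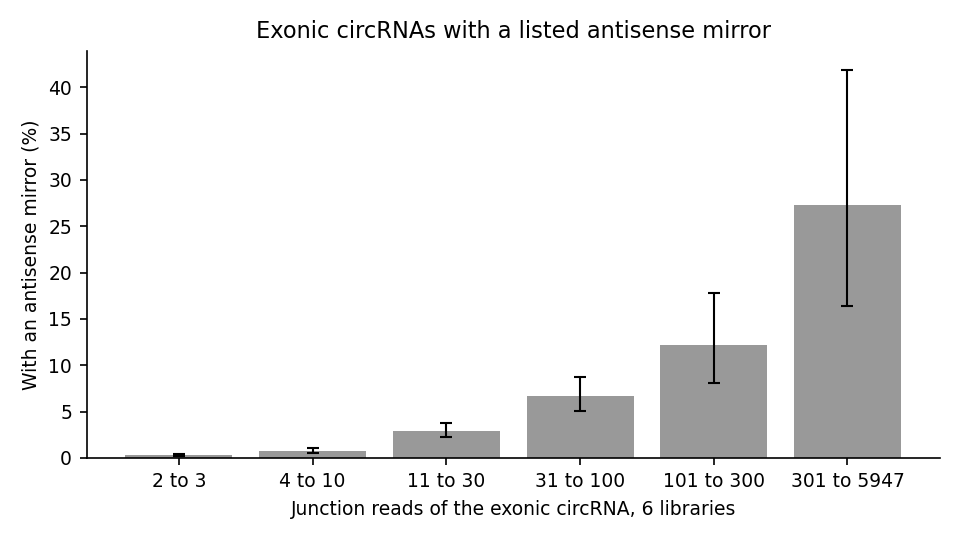
Share of exonic circRNAs with an antisense mirror in the table (vertical axis, %) by the exonic circle's own junction reads over 6 libraries (horizontal axis); bars are shares and whiskers 95% Wilson intervals, which cover counting error only. The share rises from 0.266% at 2 to 3 reads to 27.3% above 300 reads.

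The most read antisense circle lay opposite Rims2, which encodes a scaffold of the presynaptic active zone that helps to place synaptic vesicles near calcium channels. It had 9, 6 and 6 reads in WT replicates 1 to 3 and 6, 6 and 7 in A53T replicates 1 to 3, and no library lacked it. Its sense partner had 188, 227 and 91 reads in WT and 188, 148 and 159 in A53T. The antisense part of the pair was thus 2.58 to 6.19% in WT and 3.09 to 4.22% in A53T, and the groups overlapped. In CPM after TMM scaling, a correction for library composition, the antisense circle stood at 221.5 ± 48.5 in WT and 201.5 ± 14.5 in A53T (SD, n = 3 each). The log2 fold change, A53T over WT, was -0.13 with a standard error of 0.69 and a 95% interval of -1.52 to 1.26 (edgeR quasi-likelihood, Benjamini-Hochberg adjusted p = 1.00). That direction turned without WT replicate 1, to 0.03.

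Another active zone gene, Erc1, whose protein binds RIM proteins and shares their compartment, had the pair most tilted to the antisense strand. Opposite its exon 15, a circle of 161 nt had 7, 2 and 6 reads in WT and 4, 1 and 4 in A53T. The sense circle of the same exon had 0, 1 and 5 reads in WT and 0, 0 and 3 in A53T. Over the 6 libraries 24 of 33 reads were antisense, 72.7% (95% Wilson interval 55.8 to 84.9%, counting error only). The pair was picked as the highest of 194 by these same counts, so the interval is no test of an even split. The antisense count was above the sense count in 6 of 6 libraries, with leads as narrow as 6 against 5 and 4 against 3. A longer antisense circle of Erc1 started at the same position and lay opposite exons 13 to 15. It had 8 reads against 14 for its partner. All 3 antisense circles of Erc1 together had 34 reads, 26.6% of the circRNA reads of that host. WT libraries held the exon 15 circle at 164.5 ± 94.7 CPM and A53T libraries at 96.3 ± 56.6 CPM (SD, n = 3 each), with overlapping groups.

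Other pairs with about as many antisense as sense reads, or more, were smaller. Opposite exons 8 to 9 of Ambra1, which encodes a regulator of autophagy, 13 antisense reads stood against 8 sense reads, 61.9% (Wilson interval 40.9 to 79.2%). Its antisense reads numbered 5, 0 and 0 in WT and 2, 4 and 2 in A53T. For Larp1, the gene of an RNA-binding protein that controls translation of ribosomal protein mRNAs, the counts were 8 and 4, and 6 of the 8 lay in WT replicate 3. Ptk2, the gene of focal adhesion kinase, had 13 antisense and 14 sense reads, 9 of the former in A53T replicate 1. The intervals of Ambra1 and of these small pairs include an even split or rest on single libraries.

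Dtnb, which encodes beta-dystrobrevin of the dystrophin-associated complex, had an antisense circle that varied within both groups. Its reads were 12, 9 and 2 in WT and 2, 12 and 2 in A53T, while the sense partner held 54, 51 and 31 in WT and 58, 46 and 47 in A53T. High and low libraries occurred in both groups. In CPM, the antisense circle stood at 227.4 ± 139.1 in WT libraries and at 167.8 ± 179.0 in A53T libraries (SD, n = 3 each). The log2 fold change was -0.46 with a standard error of 0.77 and an interval of -2.02 to 1.11 (edgeR quasi-likelihood, adjusted p = 0.993). It was -0.83 without WT replicate 3, -0.08 without A53T replicate 1 and -0.05 without A53T replicate 3. Med13l, a gene of the Mediator kinase module, was uneven too: 15 of its 27 antisense reads lay in A53T replicate 3 and the other libraries had 1 to 5.

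Fbxw4, which encodes an F-box protein that takes part in ubiquitin ligases, had, in read counts, the only antisense circle among the 12 most read whose groups did not overlap or tie. It had 2, 0 and 1 reads in WT and 6, 8 and 6 in A53T. The sense partner over the same exons 2 to 5 had 17, 30 and 15 reads in WT and 18, 19 and 24 in A53T. The A53T libraries thus lay above the WT ones for the antisense circle, while the sense groups overlapped. Antisense reads made up 10.5, 0 and 6.25% of the pair in WT and 25, 29.6 and 20% in A53T. In CPM the antisense circle stood at 32.4 ± 29.8 in WT and 212.0 ± 33.5 in A53T, which gave a log2 fold change of 2.60 with a standard error of 1.12 and an interval of 0.32 to 4.88. The sense partner stood at 640.6 ± 180.1 and 645.8 ± 82.8, with a log2 fold change of 0.01. The antisense difference failed the edgeR quasi-likelihood test over all 1214 circRNAs tested (unadjusted p = 0.0264, Benjamini-Hochberg adjusted p = 0.845). It entered that test only through the A53T libraries, in which it was high, so a difference of some size was bound to appear. Over all tested circRNAs the groups did not overlap for 3.87% with A53T above and 4.61% with A53T below. A second antisense Fbxw4 circle, which shares an end with the first and lies opposite exons 2 to 4, had 2, 2 and 0 reads in WT and 0, 2 and 0 in A53T, so it did not follow the first.

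**Figure D4:**
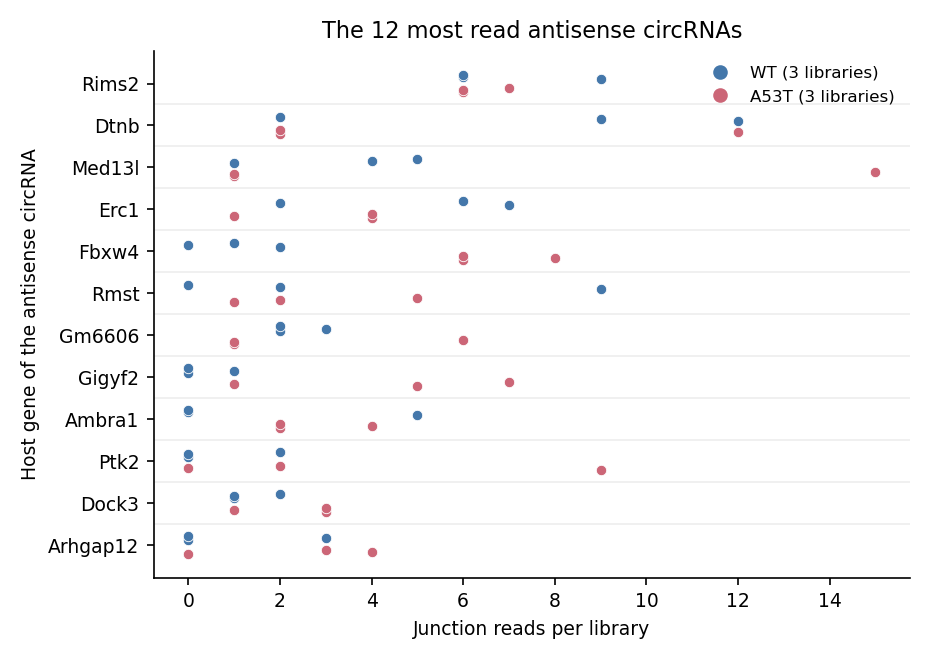
Junction reads per library (horizontal axis) of the 12 most read antisense circRNAs, named by host gene (vertical axis); each point is a library, WT in blue and A53T in red, 3 of each. The Fbxw4 circle has 0 to 2 reads in WT and 6 to 8 in A53T, while WT and A53T points overlap for the others or, for Gigyf2, meet at 1 read.

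Gigyf2, the gene of a translational repressor studied in Parkinson disease, had 0, 1 and 0 antisense reads in WT and 5, 1 and 7 in A53T, against 381 sense reads. WT replicate 2 and A53T replicate 2 tied at 1 read. In CPM that read stood at 28.1 and 31.2, a gap made by library scaling alone, so it does not separate the groups. The antisense Rmst circle, opposite a long non-coding RNA gene of neurogenesis, had 9, 2 and 0 reads in WT and 1, 2 and 5 in A53T. Dock3, the gene of a guanine nucleotide exchange factor of neurons, had 1, 1 and 2 in WT and 3, 1 and 3 in A53T, and Arhgap12 had 10 reads in all. The 12 most read antisense circles held 248 reads, 19.1% of the class, and 11 of them were mirrored. The exception, Gm6606, is an annotated pseudogene with 2, 3 and 2 reads in WT and 1, 1 and 6 in A53T; reads of its parent gene could be placed there, which makes the count uncertain.

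In the comparison of A53T with WT over single circRNAs, 3 of the 372 antisense circles had the 5 reads in at least 3 libraries that the test required, namely those of Rims2, Dtnb and Fbxw4. Of the 3, 0 passed an adjusted p of 0.05 in edgeR, as did 0 of all 1214 tested (0%), and 1 had an unadjusted p under 0.05, against 4.70% of all tested. That 1 was the Fbxw4 circle, which entered the test only through the A53T libraries, so the 2 shares do not show an excess. DESeq2 gave 0 adjusted and 1 unadjusted call among the 3, limma-voom 0 and 0. In read counts, the groups of all 372 listed members did not overlap for 3 with A53T above (Fbxw4, Dnm3 and Chd7) and for 1 with A53T below (Med12l), against 1.35% and 1.17% of all listed circRNAs. The antisense circle of Dnm3, a dynamin gene of synapses, had 0 reads in each WT library and 3, 2 and 2 in A53T, and that of Chd7, a chromatin remodeller gene, 0 in WT and 2, 2 and 1 in A53T. Med12l, a Mediator gene, had 1, 1 and 3 reads in WT and 0 in each A53T library. At 5 to 7 reads in all, these counts carry little weight, and the depth limits what could be detected.

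Summing antisense reads over each host gene brought 5 hosts into the test, Fbxw4, Copg2, Dtnb, Rims2 and Erc1, and 0 of them passed. Their log2 fold changes were 1.62 for Fbxw4, 1.50 for Copg2, -0.22 for Dtnb, -0.15 for Rims2 and -0.03 for Erc1, with edgeR quasi-likelihood adjusted p-values of 0.992 or more and unadjusted ones of 0.0963 or more. Over all 1375 host sums tested 0% passed at the adjusted and 4.36% at the unadjusted threshold; DESeq2 and limma-voom gave 0 adjusted and 0 unadjusted calls among the 5. Groups did not overlap for Fbxw4, with A53T above, as for 4.15% of all host sums, and for 0 of the 5 with A53T below, against 3.27%. The Fbxw4 sum, like the single circle, passed the filter only through the A53T libraries, in which it was high.

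Copg2, a coatomer subunit gene of vesicle transport, had the most antisense circles of any host and 0 mirrored ones. Its 11 circles lay on the plus strand of chromosome 6 between 30752097 and 30772495. Of these, 9 spanned 150 to 215 nt and the others 1021 and 9128 nt, each was read in 1 library with 2 to 6 reads, and they made up 30 of the 36 circRNA reads of the host (83.3%). In GENCODE M21 the gene that overlaps Copg2 on this strand is Mest, an imprinted gene; in mouse brain an extended Mest transcript that runs into Copg2 has been described. The antisense reads summed to 0, 8 and 0 in WT and 8, 7 and 7 in A53T. WT replicate 2 stood with the A53T libraries, while the other WT libraries had none. Without it the host had 0 WT and 22 A53T reads. The unadjusted edgeR p was then 0.0049, the smallest of the settings run for Copg2, and the adjusted p 0.429. In that setting the host passed the filter only through the A53T libraries, so a difference was bound to appear. The fitted log2 fold change of 5.87 depends on the prior count, since WT was at 0. With all libraries limma-voom gave 2.59 (adjusted p = 0.894).

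The short antisense circles of 1 host lay over a sequence with a near copy elsewhere. Gm29216, an annotated pseudogene on chromosome 1, had 3 antisense circles of 241 to 303 nt with 3, 4 and 0 reads in WT and 0 in each A53T library. Its transcript matched the mitochondrial gene mt-Co1 at 99.8% over 483 of 492 bases, so reads of the mitochondrial genome could be placed there and its count is uncertain. By the type of the transcript named in the table, 332 of the 372 antisense circles faced protein-coding transcripts and 12 faced pseudogenes. A gene annotated on the circle's own strand overlapped 58.5% of the hosts of mirrored circles, 56.7% of hosts with other shared exon ends and 51.5% of hosts with none, against 55.2% of the hosts of exonic circRNAs.

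The synaptic list is the longest of the gene lists, so its totals do not rank it against them. Of its 50 genes 49 had a circRNA and 9 an antisense one, with 13 antisense circles, 9 of them mirrored, and 96 reads, 49 in WT and 47 in A53T. The Rims2 and Erc1 circles gave 74 of the 96. Beside them were single circles of Cacna1a, the gene of a presynaptic calcium channel (0, 1 and 0 reads in WT and 0, 2 and 3 in A53T), of the postsynaptic scaffold genes Shank1 and Shank3, of the GABA receptor gene Gabrb1 and of Magi2, and a pair of circles each for Syt1, the calcium sensor of vesicle release, and Cadps. In the table the exonic circles of Cadps and Ube2e2 lie on the plus strand and their 3 antisense ones on the minus strand, while GENCODE M21, an older build, has both genes on the minus strand, so the class of these 3 is uncertain. On the list of dopaminergic neuron genes, the potassium channel gene Kcnj6 had a mirrored circle, with 4 reads in A53T replicate 2 and none elsewhere, against 163 sense reads. Vps13c, which encodes a lipid transfer protein and is linked to Parkinson disease, had an antisense circle with 5 reads in WT replicate 2 and none elsewhere. Pan-neuronal Rbfox3 had 2 reads in WT replicate 1. Astrocyte, oligodendrocyte, microglial and endothelial lists held 0 antisense circles. Over all hosts 6.0% had an antisense circle, and the reads per gene here are too few for a comparison of groups.

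For the class as a whole, the antisense share of junction reads was 0.732, 0.618 and 0.492% in WT and 0.667, 0.752 and 0.807% in A53T. The groups overlapped (two-sided exact permutation p = 0.2). Mirrored circles held 0.377 ± 0.086% in WT and 0.486 ± 0.074% in A53T (SD, n = 3 each; two-sided exact permutation p = 0.2), and the other antisense circles 0.237 ± 0.037% and 0.256 ± 0.017% (exact permutation p = 0.5). At the mirrored junctions 3.84 ± 0.82% of reads were antisense in WT and 4.92 ± 0.75% in A53T (exact permutation p = 0.2). Adjusted over these 3 measures of mirrored and other circles, which were chosen with the data in view, the exact p-values were 0.3 to 0.5. With 3 samples against 3, exact p-values cannot go below 0.1. The number of antisense circles with a read was 80.3 ± 23.8 in WT and 97.0 ± 14.7 in A53T (exact permutation p = 0.5), 1.17 ± 0.24 and 1.39 ± 0.17% of all circRNAs with a read (exact permutation p = 0.3). WT replicate 3, the library with the fewest junction reads, had the lowest share and the fewest antisense circles, and the part of depth in this was not tested. Without it the difference in the number of antisense circles, A53T minus WT, went from 16.7 to 3 and that in their share of reads from 0.128 to 0.0671 percentage points. Without A53T replicate 1 the difference in number was 25.2. Reads per antisense circle were 2.44 ± 0.09 and 2.44 ± 0.12 (exact permutation p = 0.9). The 4 planned measures were the class share of reads, the number of circles, their share of circRNAs and the reads per circle. Adjusted over these 4, the exact permutation p-values were 0.6 to 0.9.

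**Figure D5:**
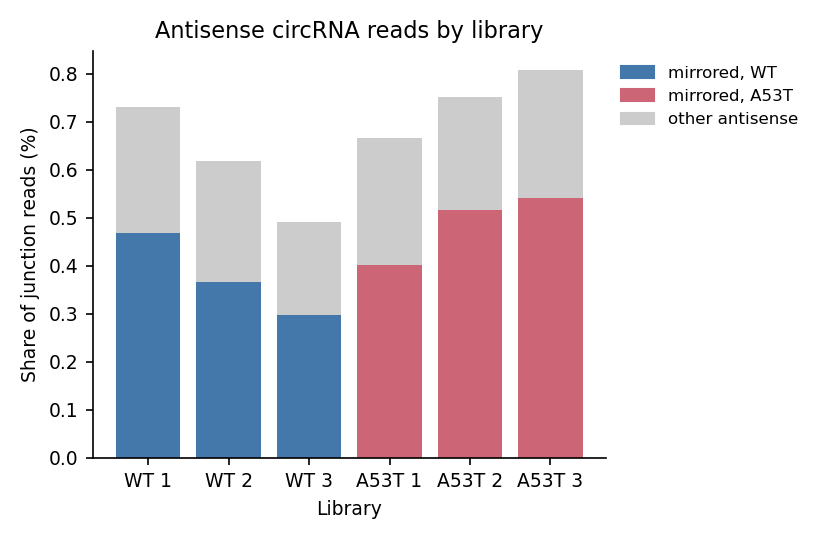
Share of junction reads from antisense circRNAs (vertical axis, %) in each of the 6 libraries (horizontal axis); the coloured part of a bar is mirrored circles, blue for WT and red for A53T, and the grey part is the other antisense circles. The bars reach 0.492 to 0.732% in WT and 0.667 to 0.807% in A53T, so the groups overlap.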

How the data were processed

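Per the file headers, the deposited table gives, for each circRNA, counts of back-splice junction reads in 6 libraries and the log2 CPM the authors computed with edgeR. The build (mm39) and tools (STAR, edgeR 3.16.5, cutadapt 1.9.3) are from the submitters' processing notes, while the circRNA caller, its annotation and its use of strand are not stated. The deposited log2 CPM was only checked against the counts (prior count 2, largest difference 0.122).

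Members are rows whose class is antisense. A mirrored circle has the start and end of a circRNA on the other strand. Exon runs were matched by span to transcripts of GENCODE M21, an older build, with no coordinate converted; junction sequences come from those transcripts, because no genome of the table's build was used here. Gm29216 was aligned with blastn 2.17.0.

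Features with at least 5 reads in at least 3 libraries entered edgeR 4.0.16 (quasi-likelihood, robust, TMM, two-sided, Benjamini-Hochberg, threshold 0.05) in R 4.3.3, on all circRNAs or on host sums split by strand class; the script was tested on simulated counts. Standard errors derive from the F statistic. Exact permutation tests ran over libraries. DESeq2 1.42.0, limma-voom 3.58.1, other filters, another scaling, a replicate block and leaving out replicates were alternatives. Intervals are 95%; Wilson ones cover counting error only, since PCR copies were not marked by molecular identifiers.

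Named were the 12 most read antisense circles, those tested, hosts with most antisense circles or reads, and the most read mirrored ones; others named were chosen after their values were seen. Members and gene lists were chosen with earlier results of these data known, and 1 list is not reported here. Figures were drawn with matplotlib 3.10.9.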

Additional observations from a re-analysis of the deposited data

How the results depend on the processing

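Of the recomputed values, 196 were classed as the same, 17 reversed, 28 were weaker, 1 was stronger and 1 moved. For single circles, host sums and comparisons of classes, the same means an unchanged direction and side of the threshold. For the class measures of A53T minus WT it means the direction only, and counts of circles have neither. Under every scaling, filter and tool run, and without any 1 library, 0 antisense circRNAs and 0 antisense host sums passed; a filter of 10 reads left 0 antisense circRNAs to test. The Fbxw4 circle had adjusted p-values of 0.469 to 0.997, and it fell below the filter whenever an A53T library was left out. Of the 372 antisense circRNAs, 158 (42.5%) had a mirror that was read in a library which also read the antisense circle. With at least 5 reads, 45 of 55 antisense circRNAs (81.8%) were mirrored, like the former an alternative added after seeing the data. Under the same limit, the difference from exonic circRNAs was -2909 nt in span, -3.16 reads per circle and -15.6 percentage points read in all 6 libraries, and that from intergenic ones 7283 nt and 2.43 points, the last reversed. Counting a circRNA from 2 reads gave -0.483 reads per circle against intergenic ones, now past the test, and -0.0262 for A53T minus WT, which was -0.0558 without mirrored circles. Leaving out 1 library gave ranges of -5142 to -4505 nt, -2.51 to -2.37 reads and -18.9 to -18.6 points against exonic circRNAs, and of 5564 to 6077 nt and -0.443 to 0.160 points against intergenic ones; 5 pairs cannot pass this test. For A53T minus WT the ranges were 3 to 25.2 antisense circles, 0.0671 to 0.187 percentage points for the antisense share (0.0193 without mirrored circles), -0.0399 to 0.0772 reads per antisense circle and -0.00191 to 0.0324 percentage points for the share of antisense circles without a mirror. The log2 fold changes ranged from -0.29 to 0.03 for the Rims2 circle, and for host sums from -1.07 to 0.20 for Dtnb, -0.39 to 0.27 for Erc1, -0.33 to 0.000736 for Rims2 and 0.90 to 5.87 for Copg2; limma-voom gave 0.11 for Erc1. Replicate numbers did not pair the libraries (correlations of deviations -0.03, 0.02 and 0.02, with 1 of 3 numbers best matched to itself), and with a replicate block 0 antisense circRNAs passed and the Fbxw4 value was 2.67. The causes of these shifts were not tested. Depth limits all single-circle comparisons: 290 of 372 members were read in 1 library.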
